A study of Mus musculus with 4 samples.

Results

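Transcripts of the splicing machinery were compared between *Id2*+/+ and *Id2*Δ/Δ hematopoietic stem cells (HSCs), the bone marrow cells that renew all blood lineages. The 68 genes described here are every one of the 19354 genes in the table whose symbol begins with Srsf, Hnrnp, Sf3a, Sf3b, Snrp or Prpf, together with *U2af1* and *U2af2*. Symbols containing -ps were to be left out, and 0 of the genes had one. The 68 genes comprise 11 SR protein genes (*Srsf*), 20 hnRNP genes (*Hnrnp*), 11 genes for SF3A, SF3B and U2AF, 13 *Snrp* genes and 13 *Prpf* genes.

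The HSCs were sorted as LSK FLT3- CD48- CD150+ cells from mice aged 8 to 16 weeks that carried *Mx1-Cre* with either *Id2*+/+ or *Id2* fl/fl, and all mice, controls included, had received pIpC 2 weeks earlier. *Mx1-Cre* is switched on by interferon, which pIpC induces, so that deletion is not limited to HSCs. Pools of cells from 14 *Id2*+/+ mice and 15 *Id2* fl/fl mice were made in 2 experiments, and each genotype gave 2 RNA-Seq libraries, named here replicates 1 and 2. The experiment behind each library is not given in the labels, and P values measure only the spread between these libraries of pooled mice.

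Introns are removed by the spliceosome, a machine assembled anew on each transcript from small nuclear ribonucleoproteins (snRNPs) and many other proteins. U1 snRNP marks the start of an intron, and U2AF and the SF3A and SF3B complexes of U2 snRNP mark its end and branch point, after which the U4/U6.U5 tri-snRNP joins and the catalytic centre forms. SR proteins mostly promote the use of nearby exons and hnRNPs often oppose them, and *SF3B1*, *SRSF2* and *U2AF1* are recurrently mutated in human myeloid neoplasms.

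As a family, the *Snrp* genes had the highest *Id2*Δ/Δ values relative to *Id2*+/+, and the single genes *Sf3b5* and *Sf3b6* stood beside them. SR, hnRNP and *Prpf* genes had medians near 0. The median log2 fold change was 0.20 over the 13 *Snrp* genes, of which 11 were higher in *Id2*Δ/Δ HSCs, and 0.07 over the SF3 and U2AF genes, of which 9 of 11 were higher. The median was 0.02 over SR genes, -0.01 over hnRNP genes and 0.05 over *Prpf* genes, beside 0.01 over all 15895 genes tested. None of the 68 genes passed the threshold of an adjusted P value under 0.05 in limma, and the lowest adjusted P value was 0.910. By the same test 0% of all genes tested passed, so that the values below are a description of 4 libraries. In bulk RNA, fewer cells of a type and less RNA per cell cannot be told apart.

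The libraries held 14200000 and 15700000 reads for *Id2*+/+ and 17800000 and 18800000 reads for *Id2*Δ/Δ, as recovered from the steps between low values. *Id2* itself had 93 and 98 reads in *Id2*+/+ libraries and 0 reads in both *Id2*Δ/Δ libraries, which is at least 38.4-fold lower with 3 reads per library as the limit that a count of 0 allows. Its adjusted P value was 0.910, so that even this deletion did not pass the threshold. The summed level of 12 HSC marker genes, all with values, was 5660 and 5535 counts-per-million (CPM) in *Id2*+/+ and 4027 and 4677 CPM in *Id2*Δ/Δ libraries. Markers of other blood cells were lower in sum: 142 to 282 CPM for 10 neutrophil and myeloid progenitor genes, 454 to 598 CPM for 6 of 7 megakaryocyte genes with values, 42.4 to 60.4 CPM for 7 of 9 erythroid genes, 38.5 to 44.0 CPM for 5 of 6 macrophage genes, 36.8 to 54.0 CPM for 3 of 7 B cell genes and 22.7 to 26.2 CPM for 2 of 7 T cell genes. The megakaryocyte sum was 454 and 510 CPM in *Id2*+/+ and 513 and 598 CPM in *Id2*Δ/Δ libraries, higher in both of the latter. The sums for the neutrophil and myeloid progenitor, erythroid, macrophage, B cell and T cell genes overlapped between genotypes. *Cd79a*, *Ms4a1*, *Cd3e* and *Adgre1* were among the markers with no row among the values used. The *Id2*Δ/Δ library with the lower HSC marker sum, replicate 1, was also the one with the highest *Snrp* values, and the part of cell composition in the results below was not tested.

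Promoter windows of 4 of these genes are shown first, because *Snrpd2*, *Snrpf* and *Sf3b6* were higher together in *Id2*Δ/Δ libraries while *Srsf11* was lower. Each holds 300 bases around the annotated start, most of them upstream, 5′ to 3′ on the gene's strand, from RefSeq on GRCm38.p6. *Snrpd2* is at chr7:19149588-19149887 on the plus strand, *Snrpf* at chr10:93589609-93589908 on the minus strand, *Sf3b6* at chr12:4817358-4817657 on the plus strand and *Srsf11* at chr3:158036557-158036856 on the minus strand. Capitals mark CANNTG (the E-box bound by basic helix-loop-helix factors, the partners of ID proteins), ACGTG or GCGTG (the core bound by hypoxia-inducible factors) and CCGGAAG (a core bound by ETS factors), on either strand.
Snrpd2: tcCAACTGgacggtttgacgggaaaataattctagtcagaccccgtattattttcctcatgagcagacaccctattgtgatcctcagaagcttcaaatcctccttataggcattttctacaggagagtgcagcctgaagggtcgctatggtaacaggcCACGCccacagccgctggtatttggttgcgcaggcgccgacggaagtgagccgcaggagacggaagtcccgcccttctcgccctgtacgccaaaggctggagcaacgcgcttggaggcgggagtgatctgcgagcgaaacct
Snrpf: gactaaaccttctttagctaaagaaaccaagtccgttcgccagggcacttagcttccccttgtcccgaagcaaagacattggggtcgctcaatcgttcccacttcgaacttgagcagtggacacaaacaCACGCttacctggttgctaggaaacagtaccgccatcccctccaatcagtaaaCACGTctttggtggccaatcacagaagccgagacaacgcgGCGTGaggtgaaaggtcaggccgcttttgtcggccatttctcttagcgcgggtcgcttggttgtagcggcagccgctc
Sf3b6: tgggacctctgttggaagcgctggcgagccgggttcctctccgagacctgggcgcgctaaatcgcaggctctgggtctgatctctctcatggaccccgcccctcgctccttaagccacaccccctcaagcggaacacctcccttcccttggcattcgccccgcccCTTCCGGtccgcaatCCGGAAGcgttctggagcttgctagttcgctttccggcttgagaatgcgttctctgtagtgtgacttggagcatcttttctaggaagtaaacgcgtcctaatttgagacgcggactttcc
Srsf11: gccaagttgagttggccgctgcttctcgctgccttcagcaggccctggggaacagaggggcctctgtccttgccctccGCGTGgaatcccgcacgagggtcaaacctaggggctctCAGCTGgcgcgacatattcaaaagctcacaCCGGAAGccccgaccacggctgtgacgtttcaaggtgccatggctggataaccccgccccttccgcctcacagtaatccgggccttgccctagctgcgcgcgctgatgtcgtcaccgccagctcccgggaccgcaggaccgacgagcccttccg

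The *Snrpd2* window held 1 E-box and 1 GCGTG, the *Snrpf* window held 1 ACGTG and 2 GCGTG and no E-box, the *Sf3b6* window held 2 CCGGAAG, and the *Srsf11* window held an E-box, a GCGTG and a CCGGAAG. Only the first listed window of each gene was used, and 1 chromosome was left out. On this basis 58 of the 68 genes had windows. An E-box, which can overlap ACGTG where it reads CACGTG, was present in 63.8% of them and in 72.1% of all 27025 windows. ACGTG was present in 41.4% against 19.7%, GCGTG in 58.6% against 32.5%, CCGGAAG in 32.8% against 9.1%, and the TATA box letters TATAAA in 10.3% against 14.2%. The windows of splicing genes also had a higher median GC content, 60.0% against 52.7%, and the motif shares were not compared at equal GC content. Nor were the 27025 windows limited to the genes tested in these cells. CCGGAAG was most frequent among SF3 and U2AF genes, at 6 of 8 windows, and least among hnRNP genes, at 2 of 18, while ACGTG was in 8 of 11 *Prpf* windows and 2 of 11 SR windows. A match describes letters only, not a bound site.

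All 68 genes had a mean of at least 1 CPM and were tested. Of these, 3 had an unadjusted P value under 0.05 and a higher level in *Id2*Δ/Δ libraries, namely *Sf3b5*, *Sf3b6* and *Snrpd2*, and 0 had one with a lower level, beside 1.72% and 2.95% of all genes tested. Such counts are not given with 1 library left out, because a group of 1 library has no spread of its own. The *Id2*Δ/Δ libraries were both higher than either *Id2*+/+ library for 16 genes, 23.5% of the members, beside 19% of all genes tested. They were both lower for 7 genes, 10.3% of the members, beside 15.8%. Both shares were near the background. By family, 7 of 13 *Snrp* genes lay above and 0 below, whereas 3 hnRNP genes lay above and 4 below.

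**Figure D1:**
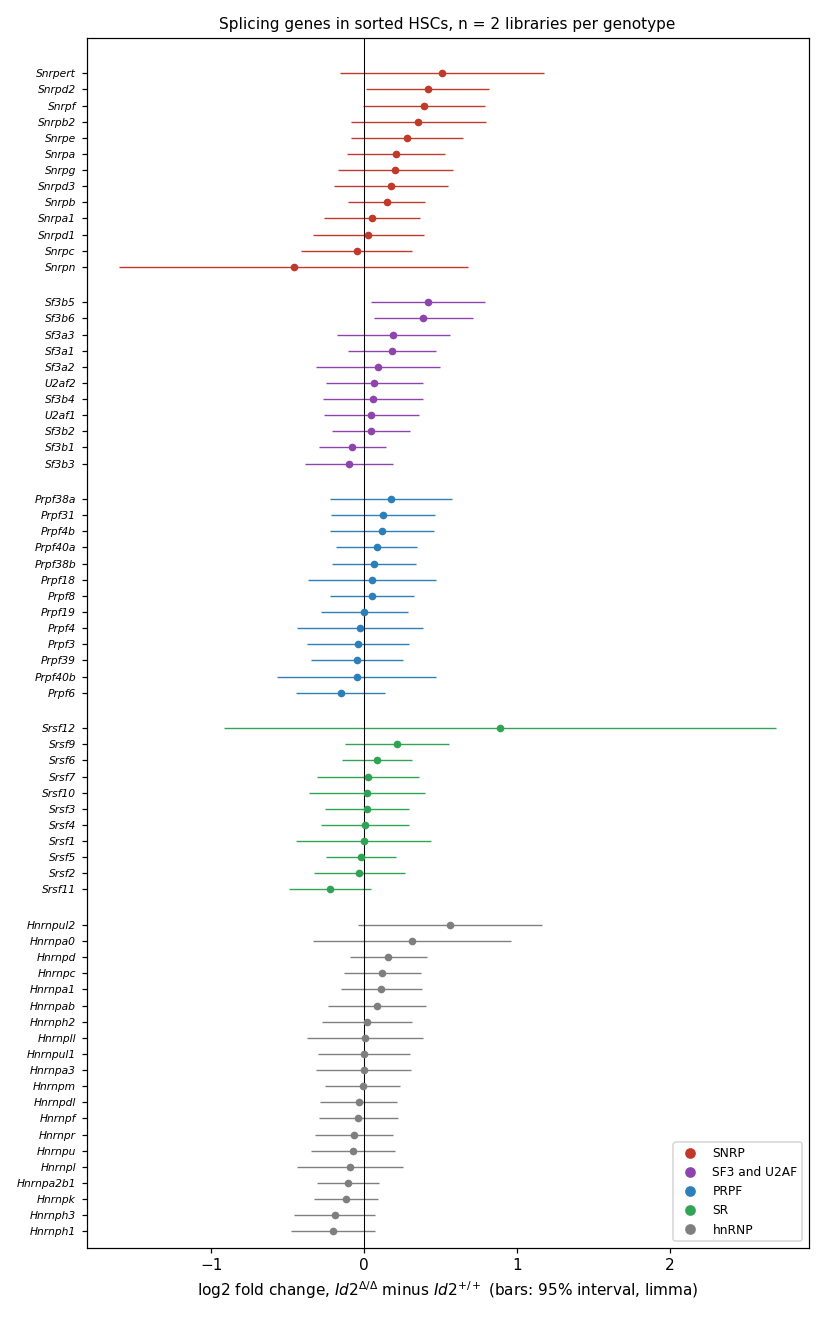
Log2 fold change of each of the 68 genes, *Id2*Δ/Δ minus *Id2*+/+, grouped by family, with points for the limma estimate and bars for its 95% interval (n = 2 libraries per genotype). Intervals of *Sf3b5*, *Sf3b6* and *Snrpd2* do not cross 0 before adjustment, and *Srsf12* and *Snrpn*, which had few reads, have the widest intervals.

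Most *Snrp* genes encode the Sm ring, the heptamer of SmB, SmD1, SmD2, SmD3, SmE, SmF and SmG that closes around the small nuclear RNA of U1, U2, U4 and U5. *Snrpd2* (ENSMUSG00000040824.3), which encodes SmD2, had 5.97 and 6.12 log2 CPM in *Id2*+/+ replicates 1 and 2 and 6.65 and 6.26 in *Id2*Δ/Δ replicates 1 and 2. The groups did not overlap, and *Id2*Δ/Δ replicate 1 was the highest library. Its log2 fold change was 0.42 ± 0.17 (SE, n = 2 per genotype, as for every fold change below), with an unadjusted P value of 0.0442 and an adjusted P value of 0.910 in limma, and it ranged from 0.22 to 0.61 with 1 library left out. *Snrpf*, for SmF, had 6.30 and 6.29 log2 CPM in *Id2*+/+ and 6.90 and 6.46 in *Id2*Δ/Δ libraries, with a log2 fold change of 0.39 ± 0.17. The *Id2*+/+ libraries were close together, and *Id2*Δ/Δ replicate 2 lay nearer to them than to *Id2*Δ/Δ replicate 1. Exons on the other strand overlap *Snrpf*, and the counting is not stated to use strand.

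*Snrpe*, for SmE, had 6.85 and 7.04 log2 CPM in *Id2*+/+ and 7.40 and 7.05 in *Id2*Δ/Δ libraries, a log2 fold change of 0.28 ± 0.16 in which *Id2*Δ/Δ replicate 2 lay at the level of *Id2*+/+ replicate 2. *Snrpert*, annotated as a processed pseudogene copy of *Snrpe*, was much lower, with 94 and 110 reads in *Id2*+/+ and 171 and 169 reads in *Id2*Δ/Δ libraries, and a log2 fold change of 0.51 ± 0.29. Reads of *Snrpe* and *Snrpert* can be exchanged where their sequences match, so that both values are uncertain. Without *Snrpert*, the *Snrp* median was 0.19. *Snrpg*, for SmG, had a log2 fold change of 0.20 ± 0.16 and *Snrpd3*, for SmD3, 0.18 ± 0.16, and in both *Id2*Δ/Δ replicate 2 lay between the *Id2*+/+ libraries. *Snrpd1*, for SmD1, had 6.40 and 6.72 log2 CPM in *Id2*+/+ and 6.65 and 6.52 in *Id2*Δ/Δ libraries, so that its groups overlapped fully and its log2 fold change was 0.03 ± 0.15.

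*Snrpb*, for SmB, had 8.01 and 8.14 log2 CPM in *Id2*+/+ and 8.22 and 8.23 in *Id2*Δ/Δ libraries. Both *Id2*Δ/Δ libraries were higher by a small amount, with a log2 fold change of 0.15 ± 0.11. *Snrpn*, an imprinted gene whose product resembles SmB, went the other way among few reads, with 42 and 60 reads in *Id2*+/+ and 52 and 33 reads in *Id2*Δ/Δ libraries and a log2 fold change of -0.46 ± 0.49. The *Snrpn* groups overlapped, and its exons overlap those of *Snurf* on the same strand. Of the 8 Sm genes 7 were higher in *Id2*Δ/Δ libraries, with a median log2 fold change of 0.19.

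The other *Snrp* genes encode proteins specific to U1 or U2 snRNP. *Snrpb2*, for the U2 B″ protein, had 5.14 and 4.90 log2 CPM in *Id2*+/+ and 5.52 and 5.23 in *Id2*Δ/Δ libraries, which did not overlap, with a log2 fold change of 0.35 ± 0.19. *Snrpa*, for the U1 A protein, had 6.11 and 6.24 log2 CPM in *Id2*+/+ and 6.43 and 6.34 in *Id2*Δ/Δ libraries, with a log2 fold change of 0.21 ± 0.14. *Snrpa1*, for the U2 A′ protein, and *Snrpc*, for the U1 C protein, had log2 fold changes of 0.05 ± 0.13 and -0.05 ± 0.15, with overlapping libraries.

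**Figure D2:**
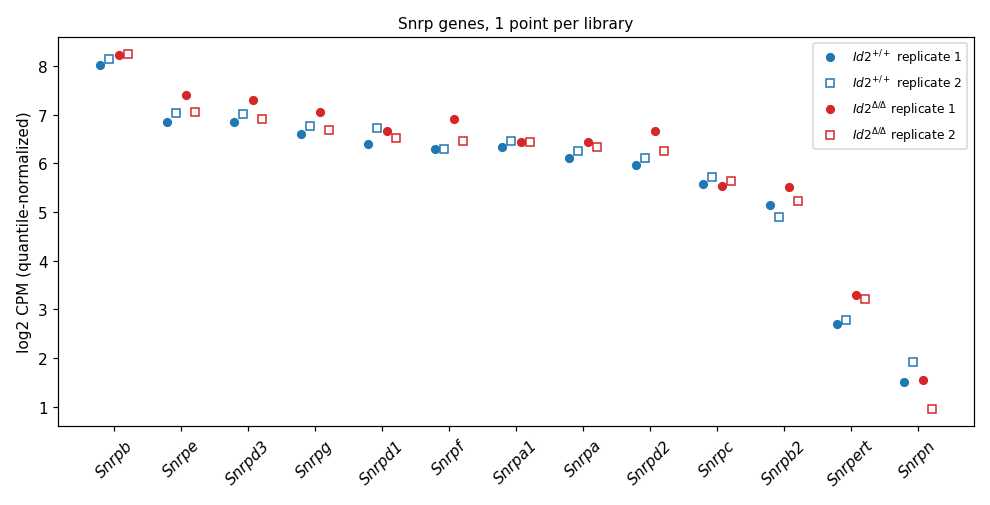
Log2 CPM of the 13 *Snrp* genes in each of the 4 libraries, in order of mean level, with filled circles for replicate 1 and open squares for replicate 2, *Id2*+/+ in blue and *Id2*Δ/Δ in red. *Id2*Δ/Δ replicate 1 is the highest library for 8 of the 13 genes and *Id2*+/+ replicate 1 the lowest for 9.

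The higher *Snrp* values were unevenly spread over the *Id2*Δ/Δ libraries. Over all genes, *Id2*Δ/Δ replicate 1 stood apart, with a Pearson r of 0.942 with *Id2*Δ/Δ replicate 2 and of 0.953 and 0.95 with *Id2*+/+ replicates 1 and 2, whereas *Id2*Δ/Δ replicate 2 had 0.962 and 0.964 with the *Id2*+/+ libraries. The median deviation of the *Snrp* genes from their own means was -0.17 and -0.02 on the log2 scale in *Id2*+/+ replicates 1 and 2, and 0.28 and 0.01 in *Id2*Δ/Δ replicates 1 and 2. One library of each genotype, replicate 1, thus lay far from 0 and the other close to it. The median log2 fold change was 0.11 without *Id2*Δ/Δ replicate 1, with 10 of 13 genes higher, and without *Id2*+/+ replicate 1 it was 0.12, with 9 of 13 genes higher. Without *Id2*Δ/Δ replicate 2 it was 0.37, with 11 of 13 genes higher, and without *Id2*+/+ replicate 2 it was 0.26, with 12 of 13 genes higher. The SR genes showed another order: the median deviation was -0.17 in *Id2*Δ/Δ replicate 1 and 0.09 in replicate 2, so that the *Id2*Δ/Δ libraries lay on either side of the *Id2*+/+ libraries at -0.04 and 0.02. The hnRNP medians were all within 0.05 of 0.

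**Figure D3:**
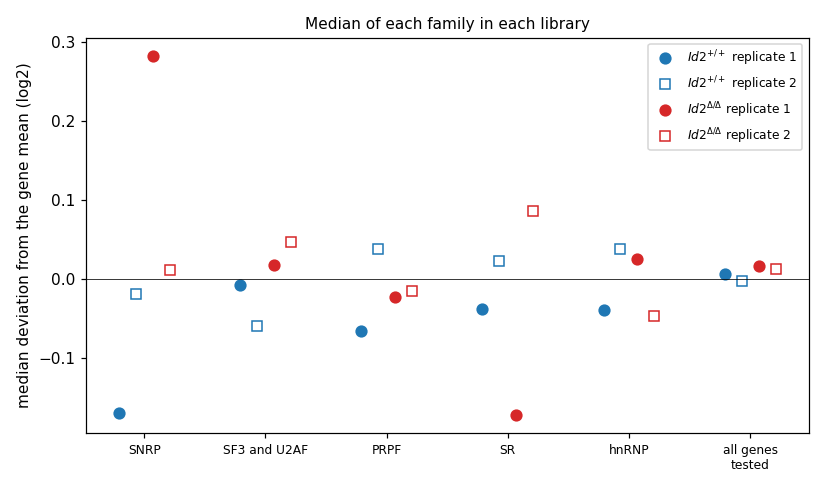
Median deviation from each gene's mean over the 4 libraries (log2 scale) for each family and for all genes tested, 1 point per library. *Id2*Δ/Δ replicate 1 has the highest *Snrp* median, 0.28, and the lowest SR median, -0.17.

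SF3A, SF3B and U2AF genes serve the recognition of the branch point and the end of the intron. *Sf3b5* and *Sf3b6*, which encode small SF3B subunits, had the lowest unadjusted P values of all 68 genes. *Sf3b6* (ENSMUSG00000037361.7), for the subunit p14 that lies near the branch-point adenosine, had 6.34 and 6.45 log2 CPM in *Id2*+/+ and 6.89 and 6.68 in *Id2*Δ/Δ libraries. The groups did not overlap, and the log2 fold change was 0.39 ± 0.14, with an unadjusted P value of 0.0256 and an adjusted P value of 0.910 in limma. *Sf3b5* (ENSMUSG00000078348.4), for another small subunit of the SF3B core, had 5.26 and 5.41 log2 CPM in *Id2*+/+ and 5.81 and 5.70 in *Id2*Δ/Δ libraries, with a log2 fold change of 0.42 ± 0.16, an unadjusted P value of 0.0318 and an adjusted P value of 0.910. With each library left out in turn, the log2 fold change was 0.28 to 0.49 for *Sf3b6* and 0.34 to 0.49 for *Sf3b5*.

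The other *Sf3b* genes did not share the values of *Sf3b5* and *Sf3b6*. *Sf3b4* had a log2 fold change of 0.06 ± 0.14 and *Sf3b2* 0.04 ± 0.11, both with overlapping libraries. *Sf3b1*, for the subunit that clasps the branch helix, had 9.29 log2 CPM in both *Id2*+/+ libraries and 9.18 and 9.25 in *Id2*Δ/Δ libraries, with a log2 fold change of -0.08 ± 0.09 (95% interval -0.30 to 0.14). *Sf3b3*, a large scaffold subunit, had a log2 fold change of -0.10 ± 0.12, and its value without *Id2*+/+ replicate 2 was 0.03. Of the SF3A subunits, *Sf3a1* had 7.25 and 7.46 log2 CPM in *Id2*+/+ and 7.54 and 7.53 in *Id2*Δ/Δ libraries, with a log2 fold change of 0.18 ± 0.12, and *Sf3a3* had 0.19 ± 0.16 with overlapping libraries. The U2AF subunits varied little: *U2af1*, which reads the AG at the end of the intron, lay between 6.17 and 6.27 log2 CPM in all 4 libraries with a log2 fold change of 0.05 ± 0.13, and *U2af2*, which binds the polypyrimidine tract, lay between 6.08 and 6.18 with a log2 fold change of 0.07 ± 0.14. The 95% intervals, -0.27 to 0.36 for *U2af1* and -0.25 to 0.38 for *U2af2*, include differences in either direction.

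Among SR proteins, which carry an arginine-serine domain and bind exonic enhancers, 7 of 11 genes were higher and 4 lower. *Srsf5* had 9.45 and 9.47 log2 CPM in *Id2*+/+ and 9.38 and 9.50 in *Id2*Δ/Δ libraries, and *Srsf7* had 9.12 and 9.25 against 9.01 and 9.40. Both *Id2*+/+ ranges lay inside the *Id2*Δ/Δ range, and the log2 fold changes were -0.02 ± 0.10 and 0.02 ± 0.14. *Srsf2* behaved likewise, with 8.985 and 8.997 log2 CPM in *Id2*+/+ and 8.79 and 9.13 in *Id2*Δ/Δ libraries, a log2 fold change of -0.03 ± 0.13 and a 95% interval of -0.33 to 0.27. *Srsf1*, the founding member of the family, had a log2 fold change of -0.00 ± 0.19 and *Srsf10*, which turns into a general repressor when dephosphorylated, 0.02 ± 0.16. In 7 of the 11 SR genes *Id2*Δ/Δ replicate 1 was the lowest library, and in 7 *Id2*Δ/Δ replicate 2 was the highest.

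The libraries of 3 SR genes did not overlap. This is 18.2% of the family above and 9.1% below, beside 19% and 15.8% of all genes tested. *Srsf11* (ENSMUSG00000055436.18), which works with other SR proteins at weak splice sites, had 8.77 and 8.68 log2 CPM in *Id2*+/+ and 8.39 and 8.61 in *Id2*Δ/Δ libraries. It was the SR gene with the lowest log2 fold change, -0.22 ± 0.12 with an unadjusted P value of 0.0889, and *Id2*Δ/Δ replicate 1 was its lowest library. *Srsf6* had 8.57 log2 CPM in both *Id2*+/+ libraries and 8.66 and 8.65 in *Id2*Δ/Δ libraries, a small difference of 0.08 ± 0.10 with replicates very close together. *Srsf9* had 6.25 and 6.52 log2 CPM in *Id2*+/+ and 6.64 and 6.57 in *Id2*Δ/Δ libraries, with a log2 fold change of 0.22 ± 0.15. *Srsf12* had the largest log2 fold change of all 68 genes, 0.89 ± 0.77, on 12 and 30 reads in *Id2*+/+ and 23 and 68 reads in *Id2*Δ/Δ libraries, which overlapped.

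The hnRNPs bind nascent RNA and often silence exons or shape polyadenylation and export. *Hnrnpa2b1* had 10.40 and 10.42 log2 CPM in *Id2*+/+ and 10.29 and 10.33 in *Id2*Δ/Δ libraries, and *Hnrnpk*, which binds cytosine-rich RNA, had 10.19 and 10.14 against 10.08 and 10.02. Both genes were lower in both *Id2*Δ/Δ libraries by about the same small amount, with log2 fold changes of -0.11 ± 0.09 and -0.12 ± 0.09, in which replicates differed less than genotypes. *Hnrnph1*, which binds runs of guanine, had 8.83 and 8.79 log2 CPM in *Id2*+/+ and 8.73 and 8.48 in *Id2*Δ/Δ libraries, and its relative *Hnrnph3* had 7.49 and 7.51 against 7.27 and 7.35. Their log2 fold changes were -0.20 ± 0.12 and -0.19 ± 0.11, with unadjusted P values of 0.122 and 0.133, and *Hnrnph1* was at -0.08 without *Id2*Δ/Δ replicate 2. These 4 genes were the hnRNP genes whose *Id2*Δ/Δ libraries both lay below both *Id2*+/+ libraries.

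The other hnRNP genes without overlap, 3 in number, lay on the other side. In all, 15% of the family lay above and 20% below, beside 19% and 15.8% of all genes tested. *Hnrnpd*, which encodes AUF1, a binder of AU-rich elements, had 7.75 and 7.82 log2 CPM in *Id2*+/+ and 7.91 and 7.98 in *Id2*Δ/Δ libraries, with a log2 fold change of 0.16 ± 0.11, and *Hnrnpc*, which binds uridine tracts, had 7.85 and 7.78 against 7.95 and 7.91, with 0.12 ± 0.11. *Hnrnpul2* (ENSMUSG00000071659.3), a relative of the nuclear scaffold protein hnRNP U, had the largest hnRNP difference, with 5.36 and 5.09 log2 CPM in *Id2*+/+ and 6.17 and 5.41 in *Id2*Δ/Δ libraries. Its log2 fold change was 0.56 ± 0.26 and depended on *Id2*Δ/Δ replicate 1, being 0.18 without that library, and its exons overlap those of *AC129217.1* on the same strand. *Hnrnpa0* had 5.51 and 5.67 log2 CPM in *Id2*+/+ and 6.35 and 5.46 in *Id2*Δ/Δ libraries, so that its log2 fold change of 0.31 ± 0.28 came from *Id2*Δ/Δ replicate 1 and was -0.14 without it. The other 12 hnRNP genes had log2 fold changes from -0.09 to 0.11 and overlapping libraries.

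The *Prpf* genes serve several steps, from U1 recognition to the second catalytic reaction. *Prpf8*, the protein at the catalytic centre, had 8.05 and 8.15 log2 CPM in *Id2*+/+ and 8.25 and 8.05 in *Id2*Δ/Δ libraries and a log2 fold change of 0.05 ± 0.12. *Prpf6*, which bridges U5 to U4/U6 in the tri-snRNP, had 6.78 and 6.79 log2 CPM in *Id2*+/+ and 6.66 and 6.60 in *Id2*Δ/Δ libraries, with a log2 fold change of -0.15 ± 0.12. It was the only *Prpf* gene without overlap, 7.7% of the family below and 0% above, beside 15.8% and 19% of all genes tested. *Prpf31*, which stabilizes U4/U6, had 0.12 ± 0.14, *Prpf38a*, which acts in spliceosome activation, 0.18 ± 0.17, and *Prpf4b*, a kinase of tri-snRNP proteins, 0.12 ± 0.15, all with overlapping libraries. The U1-associated genes *Prpf39* and *Prpf40b* both had log2 fold changes of -0.05, with SE of 0.13 and 0.22. The 5 tri-snRNP genes of this list split into 2 higher and 3 lower. Without *Id2*+/+ replicate 1 the *Prpf* median was -0.00, and without *Id2*+/+ replicate 2 it was 0.10.

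Levels of different genes were compared per kilobase of the longest annotated transcript, over the mean of the 4 libraries. On this scale *Hnrnpk* was highest at 8.54 log2 CPM per kilobase, followed by *Hnrnpa2b1* at 8.49, *Srsf2* at 8.05 and *Srsf7* at 7.93. *Srsf12* at -0.81 and *Snrpn* at 0.43 were lowest. The family medians of this level were 6.55 for SR, 6.16 for hnRNP, 5.76 for SF3 and U2AF, 5.52 for *Snrp* and 4.45 for *Prpf* genes.

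Transcript length moved with these values, since *Snrp* transcripts are short. The median longest transcript was 1690 bases for *Snrp* genes, 2412 for SF3 and U2AF, 3106 for SR, 3714 for hnRNP and 4065 for *Prpf* genes, beside 2955 for all genes tested. Among all genes tested, the median log2 fold change was 0.11 for the 3259 genes under 1500 bases, 0.04 for those of 1500 to 3000, -0.01 for those of 3000 to 6000 and -0.12 for the 1825 genes of 6000 and over. The share of genes with higher *Id2*Δ/Δ values was 64.3% in the shortest class and 29.5% in the longest. As a class, short transcripts had higher values in *Id2*Δ/Δ libraries.

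By longest transcript, the class medians of the 68 splicing genes followed the same order. All 8 members under 1500 bases, of which 6 were *Snrp* genes, were higher, with a median of 0.25. The medians were 0.07 for 23 members of 1500 to 3000 bases, 0.01 for 28 of 3000 to 6000 and -0.00 for 9 of 6000 and over. Members outside *Snrp* did not keep this order in the longest class. Their medians were 0.13 for 2 genes, 0.06 for 18, 0.007 for 27 and 0.025 for 8, from the shortest class to the longest. Across the 68 genes, log2 fold change and log2 length had a Pearson r of -0.335 and a Spearman rho of -0.366, beside -0.109 and -0.207 across 15855 genes with a length, where genes are not independent replicates and all share the same 4 libraries. When the trend with length over all genes was taken off each library, the medians were 0.17 for *Snrp*, 0.07 for SF3 and U2AF, 0.07 for *Prpf*, 0.03 for SR and 0.03 for hnRNP genes. With the median length of a gene's coding transcripts in place of the longest, which matters for genes such as *Snrpc* with 6107 bases against 933, the *Snrp* median was 0.16. With genes classed by that coding length, the medians of the 68 genes did not fall at each step. They were 0.176, 0.016, 0.018 and -0.012 from the shortest class to the longest.

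**Figure D4:**
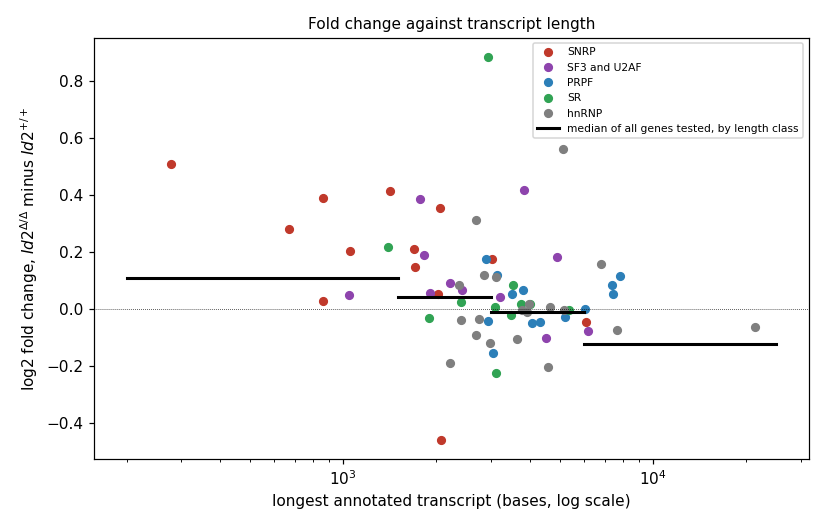
Log2 fold change of the 68 genes against the length of their longest annotated transcript (log scale), coloured by family, with black lines for the median of all genes tested in each length class. The median of all genes falls from 0.11 under 1500 bases to -0.12 at 6000 and over, and most *Snrp* genes lie above the line of their class.

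The length correction left most of the larger differences named above. Some smaller differences changed sign, such as *Hnrnpu*, from -0.08 to 0.02. *Hnrnpr* went from -0.06 to 0.17 with its longest transcript, but was -0.03 with its coding length of 2543 bases. *Snrpd2* had a corrected log2 fold change of 0.36, *Snrpf* 0.30, *Snrpe* 0.17, *Sf3b6* 0.36 and *Sf3b5* 0.43. *Snrpd1* became -0.07 and *U2af1* -0.03, and *Sf3b1* became -0.01. *Srsf11* remained at -0.22, *Hnrnph1* was -0.17 and *Hnrnpk* -0.12. Whether length itself or another property of short transcripts moved with genotype was not tested.

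Other splicing genes were read from 3 lists. Of 75 other spliceosome components, 48 were higher and 27 lower, with a median log2 fold change of 0.08, and 24 lay above and 5 below without overlap, which is 32% and 6.7% beside 19% and 15.8% of all genes tested. The length-corrected median was 0.05. The components with the lowest unadjusted P values were *Cwc15*, a protein of the activated spliceosome, at 0.39 ± 0.16, *Snrnp200*, the helicase that unwinds U4 from U6, at -0.25 ± 0.12, and *Dnajc8*, a spliceosome-associated J-domain protein, at 0.25 ± 0.13. *Snrnp200* had 8.28 and 8.25 log2 CPM in *Id2*+/+ and 7.88 and 8.15 in *Id2*Δ/Δ libraries, lower in both, and its longest transcript has 6745 bases.

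SR protein kinases and nuclear partners of SR proteins had more lower than higher values, with 12 higher and 17 lower of 29 tested, a median of -0.06, and 3 above and 8 below without overlap, which is 10.3% and 27.6% beside 19% and 15.8% of all genes tested. Their transcripts were long, with a median of 4378 bases, and the length-corrected median was -0.03. *Rbm25*, a nuclear speckle RNA-binding protein that acts in splice site choice, had 9.33 and 9.21 log2 CPM in *Id2*+/+ and 8.88 and 8.87 in *Id2*Δ/Δ libraries, with a log2 fold change of -0.39 ± 0.10 and an unadjusted P value of 0.00496. *Bclaf1*, an SR-like protein bound to spliceosomes, had 9.06 and 9.09 against 8.71 and 8.77, with -0.33 ± 0.10, and *Srrm2*, the large scaffold of nuclear speckles, had 9.18 and 9.14 against 8.902 and 9.001, with -0.21 ± 0.10. In all 3 genes the *Id2*Δ/Δ libraries were lower and close to each other, and their adjusted P value was 0.910. After the length correction the log2 fold changes were -0.36 for *Rbm25*, -0.28 for *Bclaf1* and -0.09 for *Srrm2*.

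Of 40 other splicing regulators tested, 16 were higher and 24 lower, with a median of -0.04, and 4 lay above and 7 below without overlap, which is 10% and 17.5% beside the same shares of all genes. The length-corrected median was -0.01. *Mbnl1* and *Mbnl3*, muscleblind proteins that steer alternative exons, had -0.31 ± 0.12 and -0.43 ± 0.22. *Mbnl1* had 10.55 and 10.27 log2 CPM in *Id2*+/+ and 10.04 and 10.15 in *Id2*Δ/Δ libraries. None of these passed the threshold.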

How the data were processed

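RNA-Seq values of 4 HSC libraries were analysed. The authors deposited log2 CPM values, per the file's own range and sums (the unit is read from the values), quantile-normalized across libraries. The submitters' processing notes name CASAVA 1.8.4, Trimmomatic 0.30, TopHat2 2.0.8, RSEM and STAR and builds mm9 and NCBIM37. Their roles, the gene filter and strand use are not given in the sources used here, and the data statement in the paper points to a different record. Reads below 32 CPM were recovered from the ranks of distinct values and give the depths; counting limits cover counting error only. The 15895 genes averaging 1 CPM or more were fitted with limma 3.58.1 in R 4.3.3 (lmFit on genotype alone, eBayes with a trend in intensity; two-sided P values, Benjamini-Hochberg adjustment over all genes). This fit was first tested on simulated data. Intervals are at the 95% level, before adjustment. Lengths came from GENCODE M21 (99.7% of identifiers matched, 82.0% with the same version), and the correction was a natural spline with 5 degrees of freedom per library. Overlapping exons were read from the same annotation: 6 of the 68 genes share exonic bases with another gene on the same strand and 22 with one on the opposite strand. Genes named were, per family, the 2 with the highest mean log2 CPM, the 2 highest and 2 lowest in log2 fold change, those with an unadjusted P value under 0.05 and no overlap, *Sf3b1*, *Srsf2*, *U2af1* and *U2af2*, and the 3 lowest P values per other list. One gene that this rule names is not reported here. Other members were named after their values were seen. The members and lists were chosen with earlier results of these data known. Alternatives varied pseudocount, scaling, filter, trend, threshold, replicate block, length correction and libraries. Not every marker or list gene had a row among the values used.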

Additional observations from a re-analysis of the deposited data

How the results depend on the processing

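With 2 libraries per genotype, the spread between libraries limits every comparison, and depth also limits the low genes *Srsf12*, *Snrpn* and *Snrpert*. No alternative run with all 4 libraries called a member at an adjusted P value under 0.05. A threshold of 0.1 was applied only to the fit on genotype alone, and it called no member. Replicate numbers were not shown to pair the libraries: deviations of same-numbered libraries had r = 0.0592 over 15895 genes and 0.139 over the 7332 genes above 32 CPM. With a replicate block, 1 of all genes was called (*C130089K02Rik*, not a splicing gene), 5 members had an unadjusted P value under 0.05, and no member was called. Without the intensity trend, 1 member had an unadjusted P value under 0.05. The matching shares over all genes were not counted for these runs. The causes were not tested.

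Sign changes are given here for the genes followed in every run, not for all members. With the length correction, alone or with the block, the log2 fold changes were 0.022 for *Snrpc*, -0.068 for *Snrpd1*, 0.049 for *Srsf1* and -0.032 for *U2af1*, against their sign without it. With the coding length, an alternative added after seeing the data, they were 0.018 for *Sf3b1*, -0.050 for *Snrpd1*, 0.040 for *Srsf1* and -0.017 for *U2af1*. Leaving out *Snrpert* was also added after seeing the data.

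Leaving out each library in turn, the medians ranged from 0.11 to 0.37 for *Snrp*, 0.031 to 0.090 for SF3 and U2AF, -0.0021 to 0.10 for *Prpf*, -0.082 to 0.14 for SR, -0.061 to 0.041 for hnRNP, -0.10 to -0.019 for SR kinases and partners, and -0.054 to 0.063 for other splicing regulators. The number of members with an unadjusted P value under 0.05 ranged from 0 to 16, those above without overlap from 24 to 33 and those below from 10 to 23, since fewer libraries overlap less. Among the genes followed in every run, log2 fold changes that crossed 0 ranged from -0.34 to 0.24 for *Prpf40b*, -0.022 to 0.25 for *Prpf4b*, -0.048 to 0.15 for *Prpf8*, -0.18 to 0.087 for *Prpf39*, -0.017 to 0.12 for *Snrpa1*, -0.14 to 0.19 for *Snrpd1*, -0.019 to 0.37 for *Snrpd3*, -0.12 to 0.024 for *Snrpc*, -0.17 to 0.17 for *Srsf1*, -0.20 to 0.14 for *Srsf2*, -0.082 to 0.042 for *Srsf5*, -0.17 to 0.22 for *Srsf7*, -0.21 to 0.24 for *Srsf10*, -0.23 to 0.031 for *Sf3b3* and -0.14 to 0.76 for *Hnrnpa0*. Other members crossed 0 as well, such as *Hnrnpl* at -0.28 to 0.099 and *Sf3b2* at -0.029 to 0.12. A fit with 1 library in a group assumes that it varies like the other group.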
